A study of Mus musculus with 4 samples.

Results

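Fixed variants were positions of the mouse genome at which nearly every RNA read carried G in place of A in all 4 libraries of the study. They were chosen by 2 measured values, a depth of at least 10 reads and an altered share above 0.95, both required in each library, and 4995 of the 1205261 sites in the deposited table met both. The number moved with the minimum depth, to 10390 at 5 reads and 2398 at 20 reads. The altered share is the number of reads with the changed base divided by all reads with the reference or changed base. Every site in the table is an A read as G on the strand of its gene, so other kinds of variant were not counted. On the genome 2697 fixed variants were A-to-G in plus-strand genes and 2298 were T-to-C in minus-strand genes. A site is listed for a library only if that library showed the changed base there, and the depth at unlisted sites is unknown. All shares below describe sites that the same libraries selected, and they are given without a test.

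The libraries came from primary lung endothelial cells (ECs) of 2 male inducible ADAR1 knockout (i-KO) mice, 2 wk old, from independent litters. The sample labels give the knockout as EC-specific and the strain as C57/BL6. The paper describes the i-KO model only as inducible and uses a separate mouse line for EC-specific deletion. The cells were purified with antibodies to CD31 and then ICAM-2, and part of each culture received 4-OH-tamoxifen (TM), which activates Cre and removes floxed Adar sequence, while the other part stayed untreated (CON). Each mouse (EC1 and EC2) thus gave a CON and a TM library, so that n = 2 per treatment, paired by mouse, and all of them derive from mice with the floxed Adar allele and the inducible Cre. The promoter of that Cre, the strain in which the floxed allele was made and the number of backcrosses are not given in the sources used here.

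A total of 131796753 to 207323870 counts was recorded per library, of which 1095488 to 1778732 fell on genes. All 8 markers of ECs, among them Cdh5 (VE-cadherin) and Pecam1 (CD31), were detected in every library, and they summed to 1429 (CON) and 1302 (TM) counts for EC1 and to 1245 (CON) and 2236 (TM) for EC2. Leukocyte markers summed to 20, 18, 10 and 39 counts in the order EC1 CON, EC1 TM, EC2 CON, EC2 TM, which the lists of 4 values below keep, almost all from Cd68, with Cd3e at 0 throughout. Fibroblast markers summed to 12, 4, 17 and 20 counts, led by Col1a1 in both CON libraries, by Dcn in EC1 TM and by Pdgfra in EC2 TM. Epithelial markers summed to 3, 0, 2 and 5 counts. Adar, the targeted gene, had 9, 47, 16 and 71 counts, more in the library labelled TM of either mouse, and whether these came from the deleted part was not analysed here. Listed sites within Adar had a far higher depth than these counts (given below), so for this gene the counts do not reflect the reads in the site table, and the gene counts are a weak check of cell type and of the labels. The paper itself reports, from read alignment, efficient loss of the floxed exons from Adar RNA in TM-treated cells, with other regions still transcribed. It also reports higher expression of interferon-stimulated genes after TM.

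Inbred strains differ from the C57BL/6J reference genome at many positions, and a mouse that is homozygous for such a variant shows the other base in every read of DNA or RNA. A gene that was modified in one strain and bred into another keeps a flanking stretch of donor chromosome, and regions of shared ancestry alternate with regions of different ancestry in related stocks. ADAR1 deaminates adenosine in double-stranded RNA to inosine, which is read as G, so that an edited adenosine and an A-to-G variant give the same change in a table of this kind. Editing by ADAR1 is concentrated in inverted repeats such as SINEs, avoids an adenosine that follows G, and usually alters only part of the molecules.

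The following sequences show the setting of fixed variants that carry the results, namely those nearest to Adar, those in the densest window, those that change an amino acid at high depth, and the only EC identity gene of a list of 20 that held any (Ets1). Each has 21 bases of a GENCODE vM21 transcript on the strand of the gene in GRCm38 (mm10), and the adenosine that was read as G is in capitals at position 11.
Lamtor2, nearest to Adar, chr3:88576895-88576915, minus strand: agcaagaagcAattgactggc
Lamtor2, second nearest to Adar, chr3:88576698-88576718, minus strand: cagattcagcAtcatgatgac
Arhgef11, 3′ UTR, chr3:87737721-87737741, plus strand: tagaaacaatAcaccaggtac
Hspg2, exon, chr4:137544454-137544474, plus strand: agaagcttctAtccttgtcac
Hspg2, exon, chr4:137515733-137515753, plus strand: ctcacagtgtAgaggagtgca
Ece1, exon, chr4:137946333-137946353, plus strand: cgagaagttcAtggaggttat
Ece1, 3′ UTR, chr4:137962946-137962966, plus strand: agctgcagctAgctcccagcg
Pdia6, exon, chr12:17278911-17278931, plus strand: ggatgccaccAtgaatcaggt
Serpine2, exon, chr1:79801494-79801514, minus strand: agcccttggcAttactgagat
Ets1, 3′ UTR, chr9:32755168-32755188, plus strand: cagagaccccAaactcttaca

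Fixed variants were close to complete in every library. Of the 4995, 4574 (91.6%) had no reference read in any library, 269 had 1 reference read over the 4 libraries and 152 had more. Reference reads made up 0.0645% of the reads at fixed variants in EC1 CON and 0.0579% in EC1 TM. In EC2 they made up 0.0471% in CON and 0.0475% in TM. Both values of EC1 were above both of EC2, and CON was above TM only in EC1. Between CON and TM of EC1, the altered share was equal at 4744 fixed variants, higher in CON at 118 and higher in TM at 133, and in EC2 it was equal at 4731, higher in CON at 144 and higher in TM at 120. The rule held each share above 0.95, so these small differences are bounded by it.

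The depth behind the shares was moderate for most sites and very high for a few. The median depth was 32 reads (CON) and 27 reads (TM) in EC1 and 25 (CON) and 33 (TM) in EC2, and the lowest depth over the libraries was at least 100 reads at 493 sites. At the top stood an A in the 3′ distal region of Gm6623 (5807, 8547, 5440 and 11473 reads, with 16 reference reads in all) and an exonic A of Rps9, a protein of the small ribosomal subunit (5565, 5270, 8615 and 10337 reads, 4 reference reads). Reads from near-identical copies elsewhere in the genome can pile up at such loci, which was not tested. In the 5′ UTR of Ppap2a, a phosphatase of lipid phosphates, all 3269, 3449, 4185 and 4939 reads carried the changed base. The site with the most reference reads was an intronic A of Taco1, with 28 over the libraries, where 400 of 405, 418 of 421, 362 of 368 and 598 of 612 reads were changed.

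The limits of the rule cut through few sites on the share and through many on the depth. The lowest share of a fixed variant in any library was 0.952, as in Pxn, where 20 of 21 reads of EC1 CON were changed and all 27, 21 and 32 reads of the other libraries. Only 33 fixed variants had a lowest share of at most 0.96, and 48 further sites had all shares above 0.94 but not all above 0.95. At 903 fixed variants the lowest depth was 10 or 11 reads, and 1364 sites met the share in all libraries but fell to 8 or 9 reads in at least 1 of them.

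The fixed variants were unevenly spread over the chromosomes. Chromosome 4 held 666, chromosome 9 held 615, chromosome 15 held 538, chromosome 13 held 529 and chromosome 5 held 495, which together exceeds the number on all other chromosomes. Chromosome 17 held 46, chromosome 8 held 43, chromosome 18 held 23, the X chromosome 56 and the Y chromosome 2. Expression affects how many sites are listed, so the counts were set against covered sites, those listed at 10 or more reads in at least 1 library. Adenosines read without a changed base are not among them, so the rates are not per readable adenosine. At 517803 covered sites placed in transcripts, the altered share was under 0.02 in every library. There were 5.92 fixed variants per 1000 covered sites over the genome, 16.8 on chromosome 13, 14.7 on chromosome 15, 13.6 on chromosome 9, 12.9 on chromosome 4 and 12.3 on chromosome 12. The lower end was 0.942 on chromosome 8, 0.954 on chromosome 18, 1.13 on the Y chromosome and 1.25 on chromosome 17. Chromosome 11 had the most covered sites, 74460, and 2.54 fixed variants per 1000 of them, while chromosome 13 had 31573.

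**Figure D1:**
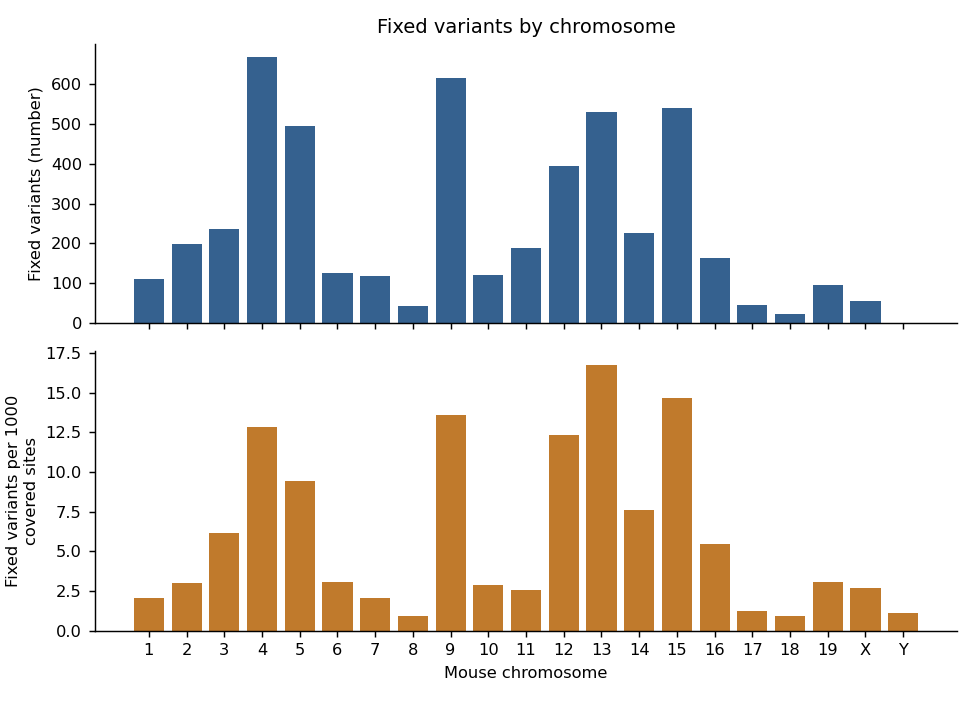
The upper bars give the number of fixed variants on each mouse chromosome and the lower bars the number per 1000 covered sites (sites listed at 10 or more reads in at least 1 library). Chromosome 4 leads the counts with 666 and chromosome 13 the rates with 16.8 per 1000, and chromosome 8 is lowest in rate with 0.942.

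The share that fixed variants took of all sites listed at 10 or more reads in all 4 libraries also differed between chromosomes. It was 42.2% over the genome, 72.8% on chromosome 13, 71.4% on chromosome 15 and 69.0% on chromosome 9. Chromosome 12, high in rate, had 40.8%. The share was 0.930% on the Y chromosome, 8.76% on chromosome 8, 12.4% on chromosome 1 and 14.5% on chromosome 18. Chromosome 1 instead held 283 of the 815 sites whose share was intermediate, between 0.3 and 0.7, in all 4 libraries, and chromosome 12 held another 212 of them.

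Within chromosomes the fixed variants lay in dense runs with wide empty spaces between them. Of 2081 windows of 1 Mb with a covered site, 562 (27.0%) held a fixed variant, and 141 windows with 10 or more held 3717 of them, or 74.4%. The number of such windows moved with the minimum depth, to 247 at 5 reads and 57 at 20 reads. The 10 densest windows held 982 (19.7%), and 57 windows were enough to reach 50% of all fixed variants. Where 2 fixed variants were neighbours on a chromosome, the median distance between them was 2287 bases, 37.1% of the distances were under 1000 bases and 6.41% were 1 Mb or more. Of the 1473 windows with at least 100 covered sites, 981 (66.6%) held none. Windows were not independent draws, because neighbouring sites share their transcripts and depth.

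**Figure D2:**
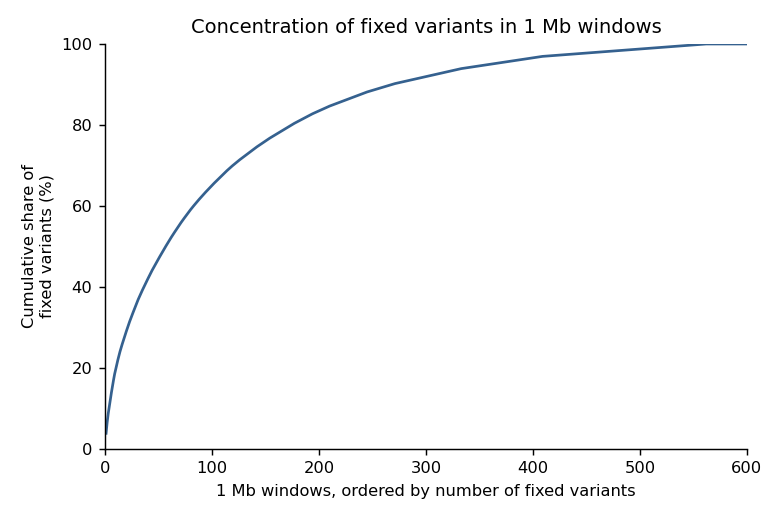
The line adds up the share of fixed variants (%, vertical axis) over 1 Mb windows ordered from the densest (horizontal axis, number of windows). The 10 densest windows hold 19.7%, the 141 windows with 10 or more hold 74.4%, and the line reaches 100% at 562 windows.

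The densest window lay at 137 to 138 Mb of chromosome 4, with 191 fixed variants among 210 sites listed at 10 reads in all libraries (91.0%). Hspg2, which encodes the basement membrane proteoglycan perlecan, held 118 of them and Ece1, the endothelin-converting enzyme, 49. The next was 112 to 113 Mb of chromosome 13 with 135, of which Ppap2a held 104, followed by 139 to 140 Mb of chromosome 4 with 108, led by Capzb, an actin capping protein, with 45. Further windows were 155 to 156 Mb of chromosome 4 with 90, 71 to 72 Mb of chromosome 2 with 87, 23 to 24 Mb of chromosome 5 with 84 and 53 to 54 Mb of chromosome 15 with 82. All 82 of the last window lay in Ext1, a glycosyltransferase that builds heparan sulfate chains. In the 141 windows with 10 or more fixed variants, 82.4% of the 4511 sites listed at 10 reads in all libraries were fixed, against 42.1% in windows with 1 to 9. The rule chose the windows with these same sites, so the contrast is a description.

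Joined over gaps of at most 1 Mb, the fixed variants formed 340 runs, 102 of them of 1 site. The 66 runs with 20 or more sites held 75.7% of all fixed variants and covered 144 Mb, with a median length of 1.86 Mb. The run with the most sites, 405, reached from 134526009 to 139649507 on chromosome 4 (5.12 Mb), and 89.0% of the sites listed at 10 reads in all libraries within it were fixed, with no site of intermediate share. The longest run was 7.94 Mb on chromosome 5, from 108069858 to 116014088, with 167 fixed variants. On chromosome 9, 189 lay between 61913846 and 67997465, and on chromosome 13, 163 lay between 111763144 and 115089761.

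Wide stretches with many covered sites held none. The stretch with the most was on chromosome 11, from 28338041 to 67487625, a length of 39.1 Mb with 17855 covered sites. Others were 22744824 to 40556461 on chromosome 2 with 14660 covered sites, 12311751 to 66875491 on chromosome 6 with 14510 and 30870782 to 62372481 on chromosome 14 with 13159. A window without fixed variants was also where most sites of intermediate share lay, 607 of 815 (74.5%), beside 65.0% of all covered sites in such windows. The 141 windows with 10 or more fixed variants held 32 of the 815 (3.93%), beside 12.7% of all covered sites. The windows with the most were 112 to 113 Mb and 111 to 112 Mb of chromosome 12, with 61 and 59 sites of intermediate share and 2 and 0 fixed variants, and 156 to 157 Mb of chromosome 1, with 56 and 0.

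The fixed variants belonged to 1390 genes by the annotation in the table, of which 669 had 1 and 93 had 10 or more. The 20 genes with the most held 990, or 19.8%. Among them were Hspg2 (118), Ppap2a (104), Ext1 (82), Itga6, an integrin subunit that binds laminin (66), Actn1, an actin cross-linker at adhesions (67), Pxn, the adhesion scaffold paxillin (49), Capzb (45), and Rock2, a kinase downstream of RhoA (44). The number of covered sites differed between these genes, so their rank is not a rate. Hspg2 had 1530 covered sites, against 602 for Ppap2a and 446 for Ank, an exporter of pyrophosphate with 41 fixed variants.

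The part in introns differed between these genes. It was 8 of 41 in H6pd, 20 of 31 in Gas7, 21 of 32 in Eif4g3, 37 of 55 in Ece1 and 19 of 26 in Cerk, and Lincppara, a noncoding RNA, had none in introns. In Hspg2, 114 of 118 lay in introns between 137469627 and 137567957 of chromosome 4, with a median depth of 45.5 and 23.5 reads in CON and TM of EC1 and of 29 and 22 reads in CON and TM of EC2. In Ppap2a, 101 of 104 were intronic over 96.0 kb, with medians of 55, 44, 27.5 and 34.5 reads in the same order. All 82 of Ext1 were intronic over 259 kb, with medians of 40, 32.5, 16.5 and 19 reads. In these genes EC1 CON was the deepest library, and together they had 19, 9 and 1 reference reads. Dock9, an activator of the GTPase Cdc42, had 45 fixed variants and Smad6, an inhibitor of BMP signaling, had 29, all of them intronic. Further genes of the 20 were Ece1 (55), H6pd (41), Eif4g3 (32), Gas7 (31), Gak (29), Cerk (26), Lincppara (26) and Lrrfip1 (26).

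Adar itself held no fixed variant, and neither did the 1 Mb window around it. The gene spans 89715022 to 89753446 of chromosome 3 on the plus strand, and the window from 89 to 90 Mb had 1808 covered sites, rank 36 of all windows, with 6 sites listed at 10 reads in all libraries. Within the gene, 206 sites were covered and none was listed at 10 reads in all 4 libraries. The highest altered share at 10 or more reads was 0.0714 over 33 sites (CON) and 0.0426 over 73 sites (TM) for EC1, and 0.143 over 28 sites (CON) and 0.2 over 94 sites (TM) for EC2. The median depth at those sites was 135, 579, 170.5 and 849.5 reads. The transcript was thus read deeply at the listed sites in every library, and no share came near 0.95 in any of them. Of the 1519 windows without a fixed variant, 21 including this one had at least as many covered sites.

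The stretch without fixed variants around Adar was 4.11 Mb long, from 88576905 to 92689372, and ranked 48 of 4226 such stretches by its 4468 covered sites. Only 25 of its sites were listed at 10 reads in all libraries, 8 of them in SINEs, and the highest value that the lowest share of such a site reached was 0.647. The near edge, 1.14 Mb below the gene, was a pair of sites in the 5′ distal region of Lamtor2, a subunit of the Ragulator complex on lysosomes. At the nearer all 10, 16, 15 and 37 reads were changed, and at the other 44 of 44, 40 of 41, 76 of 76 and 80 of 80. The far edge, 2.94 Mb above the gene, was a site of the 5′ distal region of Lce1a2, a gene of the cornified envelope, with 25 of 25, 36 of 36, 36 of 37 and 68 of 69 reads changed.

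Below that stretch the fixed variants were dense. All 29 within 2 Mb of Adar (4.56 per 1000 covered sites) lay on its low side, in Lrrc71 (13), Arhgef11, an exchange factor for RhoA (8), Pear1, a membrane receptor of platelets and ECs (6), and Lamtor2 (2). Every read at the 27 sites of Lrrc71, Arhgef11 and Pear1 was changed in all libraries. In the 3′ UTR of Arhgef11 the printed site had 84, 70, 102 and 110 reads, and the deepest of Pear1, an intronic one at 87757557, had 133, 102, 103 and 91. Within 5 Mb there were 71, with 53 on the low side and 18 on the high side, or 9.61 per 1000 covered sites. The rate over chromosome 3 was 6.13, above that within 2 Mb and below that within 5 Mb. The high side was led by S100a11 (8) and S100a10 (7), which encode small calcium-binding proteins and lie about 3.77 Mb from the gene. Within 10 Mb the number was 105, with 63 below and 42 above.

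Some sites inside the stretch were fully changed but too shallow for the rule. At 15 sites at least 1 library had 5 or more reads with a share above 0.95, 11 of the 15 were listed in all libraries, and 12 had no reference read at all. The deepest was downstream of S100a7a, 0.905 Mb above Adar, with 4, 18, 33 and 35 reads, all changed. A site 10 bases from the Lamtor2 edge had 8, 14, 20 and 34 reads, all changed. In both cases EC1 CON was the library below 10 reads. The nearest to the gene was in a SINE in the 5′ distal region of Kcnn3, at -0.217 Mb from its start, where 1 of 1, 6 of 7, 2 of 2 and 6 of 6 reads were changed. At a minimum of 5 reads the window of Adar still held none.

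**Figure D3:**
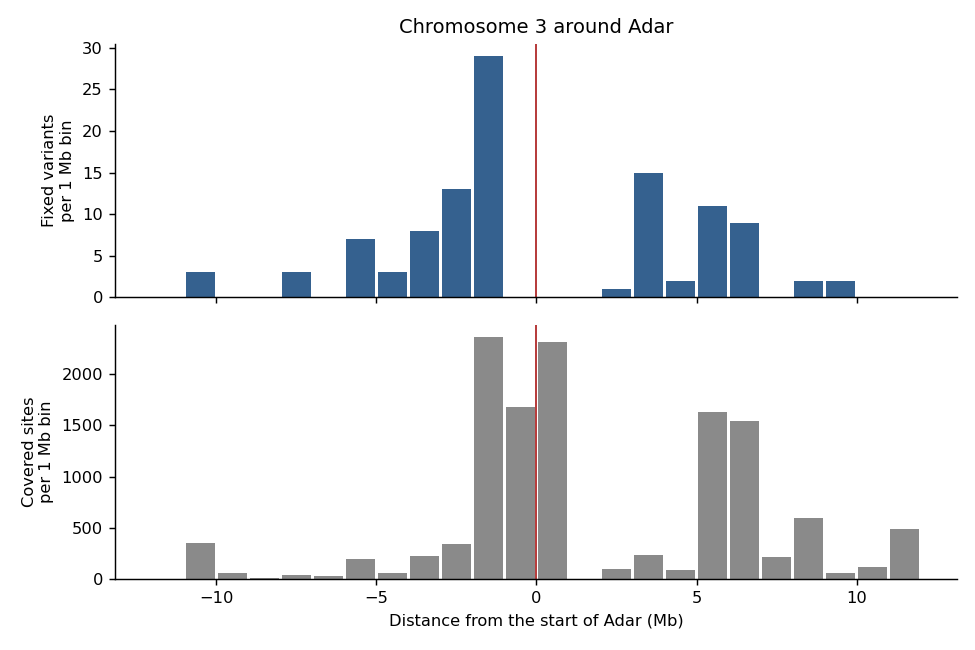
The upper bars count fixed variants and the lower bars covered sites in 1 Mb bins by distance from the start of Adar on chromosome 3 (Mb, red line at the gene). The bins on either side of the gene have 1679 and 2320 covered sites and no fixed variant, while the bin from 2 to 1 Mb below the gene holds 29.

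Introns held 51.0% of the fixed variants, a share that moved with the minimum depth, to 64.8% at 5 reads and 30.0% at 20 reads, while that of 3′ UTRs moved to 9.32% and 25.7%. By annotated gene region, 2548 were in introns (51.0%, 95% Wilson interval 49.6% to 52.4%), 823 in exons (16.5%, 15.5% to 17.5%) and 807 in 3′ UTRs (16.2%, 15.2% to 17.2%). A further 328 were 5′ distal, 310 were 3′ distal, 81 downstream, 62 in 5′ UTRs and 36 in promoters. These intervals cover counting error only, since sites of a transcript are linked. Of all covered sites, 24.2% were intronic, 43.2% exonic and 18.9% in 3′ UTRs. Covered sites are listed only where a changed base was seen, so these are not the shares of readable sequence by region. Of all sites listed at 10 reads in all libraries, a set that includes the fixed variants, 43.4% were intronic, 16.2% exonic and 21.9% in 3′ UTRs, so fixed variants made up 49.7% of the intronic, 42.9% of the exonic and 31.2% of the 3′ UTR sites in that set. Over the 15 chromosomes with at least 100 fixed variants, the intronic share ran from 28.7% to 65.2% with a median of 49.9%. The depth differed by region, with a median lowest depth of 14 reads in introns, 57 in exons and 45 in 3′ UTRs.

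The part of the fixed variants outside repeats was near that of all covered sites, 84.6%. The table put 4087 of them (81.8%, 80.7% to 82.9%) in no repeat, 469 in SINEs (9.39%, 8.61% to 10.2%), 190 in LTR elements (3.80%), 117 in LINEs (2.34%) and 45 in DNA transposons (0.901%). SINEs held 26.2% of the 3061 sites that passed the editing criteria of the study in all 4 libraries (at least 5 reads, at least 3 of them changed, share 0.05 to 0.95), 23.4% of the sites listed at 10 reads in all libraries, 14.0% of the 815 sites of intermediate share and 8.75% of all covered sites. The paper applied these criteria per library and took as reliable only sites whose rate differed between CON and TM. That step was not applied here, and the 3061 also had to pass in the TM libraries, so they are not the paper's reliable editing sites. By definition the 815 lie within the 3061. In SINEs the share of fixed variants was the lowest of the selected sets and near that of the covered sites. It ran from 6.30% to 12.2% over the 15 chromosomes, below 26.2% on each of them. With the minimum depth it moved to 11.6% at 5 reads and 6.26% at 20 reads. Within the SINEs, 184 lay in Alu-related B1 elements, 134 in B2 and 114 in B4 elements, and 354 of the 469 were intronic.

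Among repeat classes the part of listed sites that was fixed was 60% in DNA transposons, 52% in LINEs, 38.2% in LTR elements and 17.0% in SINEs, beside 51.6% outside repeats. Repeats that encode ribosomal RNA held 25 fixed variants against 33 sites listed at 10 reads in all libraries, so 75.8% of these were fixed. The 25 were scattered over 10 chromosomes, among them 6 in the 3′ distal region of Epm2a, 3 in or before Mir6236 and 2 in Rn45s, the ribosomal RNA precursor. At least 1 reference read was seen at 13 of the 25. Ribosomal RNA is encoded in many copies, and the placement of reads among them was not tested.

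**Figure D4:**
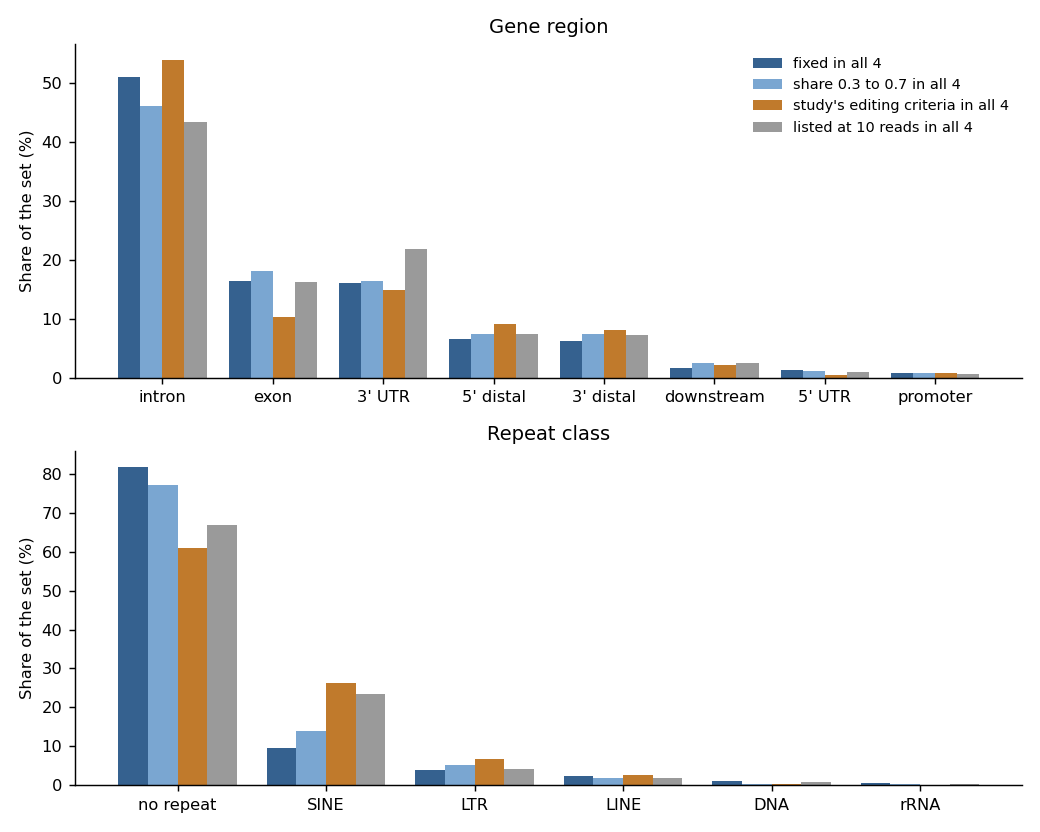
Bars give the share (%) of 4 sets of sites in each gene region (upper) and repeat class (lower): fixed variants, sites with a share of 0.3 to 0.7 in all 4 libraries, sites passing the editing criteria of the study in all 4, and all sites listed at 10 reads in all 4. Fixed variants have 9.39% in SINEs, beside 14.0%, 26.2% and 23.4% in the other sets. The sets overlap. Sites with a share of 0.3 to 0.7 lie within those passing the editing criteria, and they and the fixed variants lie within the listed sites.

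The bases next to the changed adenosine were read in transcripts for 2114 fixed variants, and in all of them the transcript had A at the site. C stood before the adenosine in 36.2% of them, A in 24.4%, G in 19.8% and T in 19.6%. Over every adenosine in the longest transcripts of the host genes, C stood before 28.4%, A before 28.4%, G before 26.1% and T before 17.0%. An A that follows C makes a CG dinucleotide once it reads G, as at the printed sites of Lamtor2, Pdia6, the Ece1 exon, Serpine2 and Ets1. G followed the adenosine in 28.2% of the fixed variants and in 29.9% of all adenosines in the host transcripts.

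Sites that met the editing criteria of the study inside SINEs had another context. Of 296 such sites in transcripts, 4.05% had G before the adenosine, 43.2% had T before it and 53.4% had G after it. The 382 sites of intermediate share in transcripts had C before in 36.6%, A in 22.5%, T in 21.2% and G in 19.6%, and G after in 28.3%. Outside SINEs, the 829 sites that met the editing criteria had G before in 18.2% and G after in 29.0%. By definition the 382 sites of intermediate share are also among the 296 or the 829, so these sets overlap.

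In protein-coding sequence most fixed variants left the amino acid as it was. Of 796 that fell in a codon of GENCODE vM21, 548 (68.8%) were synonymous and 248 changed the amino acid, in 204 genes. For every adenosine in the coding sequence of the 514 transcripts concerned, a change to G would be synonymous in 24.4%. The codon position followed, with 552 at position 3, 152 at position 1 and 92 at position 2. Of the 146 codon sites of intermediate share, 63.7% were synonymous, and of codon sites with a share under 0.02 in every library 24.2% were. The most frequent changes were threonine to alanine (47), isoleucine to valine (38), serine to glycine (23) and asparagine to serine (22). A stop codon held 1 fixed variant, which kept it a stop codon.

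The 10 genes with the deepest amino acid changes were led by Ece1 and Hspg2. In Ece1, M401V was carried by all 1680, 1647, 2112 and 3646 reads. In Hspg2, I2514V was carried by 3125 of 3126, 1235 of 1236, 3408 of 3410 and 2026 of 2026 reads. Codons are numbered from the start codon of the transcript with the longest coding sequence. M229V of Pdia6, a disulfide isomerase of the endoplasmic reticulum, had 1376, 674, 1843 and 1510 changed reads with 1 reference read in all, and I313V of Serpine2, an inhibitor of thrombin and plasminogen activators, had 655, 710, 757 and 1333 with none. The others of the 10 were S528G of the junction protein Cgnl1, N56S of the atypical cadherin Cdh13, T16A of Rock2, N453D of Os9, E785G of Filip1l and I116V of C330021F23Rik. Their lowest depths ran from 395 reads in C330021F23Rik to 605 in Cgnl1, and no library stood apart in share at any of the 10.

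Several genes carried more than 1 changed amino acid. Nlrp1b, a sensor of the inflammasome, had 8 (I113M, T188A, D286G, S482G, E488G, D550G, T555A and K621E), and Zfp738, a zinc finger gene in a cluster of related genes on chromosome 13, had 4. Apobec3, a cytidine deaminase that restricts retroviruses, had I123V, Q146R and M244V, and Prune2 and the nuclear envelope protein gene Syne2 had 3 each. Nlrp1b and Zfp738 belong to families with close copies, and reads of a copy missing from the reference could give the same table, which was not tested.

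Fixed variants lay in 3 of 24 genes of RNA editing and RNA sensing and in 1 of 20 genes of EC identity. These counts are too small to compare with the share of all genes, and no difference was tested. All 24 genes of a list for RNA editing and sensing had covered sites and 3 (12.5%) had a fixed variant, beside 1390 of 14444 genes with a covered site (9.62%). Tbk1, a kinase that activates interferon regulatory factors, had 3 in introns, with 10 to 52 reads, all changed. Ikbke, a related kinase, had 1 in an intron (24, 17, 19 and 24 reads, all changed), and Ifnar1, a chain of the type I interferon receptor, had 1 in its 3′ distal region (122 of 123, 171 of 171, 88 of 88 and 170 of 170). Ifih1, which encodes MDA-5, Ddx58, Mavs and Eif2ak2 had 211, 243, 19 and 242 covered sites and no fixed variant. Only 0, 0, 0 and 1 of these sites were listed at 10 reads in all 4 libraries, so almost none could have met the rule. Of 20 EC genes, Ets1, a transcription factor of ECs, was the only one with any (5%), with 11 in introns and 2 in the 3′ UTR, where the printed site had 147 of 147, 123 of 124, 216 of 216 and 193 of 193 changed reads. Cdh5, Pecam1, Eng and Fli1 had 611, 638, 650 and 494 covered sites and no fixed variant. Of these sites, 3, 9, 10 and 21 were listed at 10 reads in all 4 libraries.

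Most sites fixed in one mouse were also fixed in the other. EC1 had 7763 sites above 0.95 at 10 or more reads in both of its libraries and EC2 had 6335, of which 64.3% and 78.8% were fixed in the other mouse. Of those listed at 10 reads in both libraries of the other mouse, 97.2% of 5139 in EC1 and 97.0% of 5147 in EC2 were fixed there too, a base that holds only sites where the other mouse showed the changed base. Sites fixed in EC1 were between 0.05 and 0.95 in EC2 at 99 positions, and sites fixed in EC2 were so in EC1 at 83. A further 9 sites fixed in EC1 were not listed in EC2, and 64 fixed in EC2 were not listed in EC1. The rest of the unshared sites, 2660 and 1193, were mostly (2615 and 1124) under 10 reads in a library of the other mouse. The sites that did not match are not among the 4995.

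Most of the intermediate sites lay on 5 chromosomes. Of the 99, 49 were on chromosome 1, 24 on chromosome 5 and 16 on chromosome 3, and of the 83, 38 were on chromosome 4 and 29 on chromosome 8. The 49 of chromosome 1 spread over 28.0 Mb, the 38 of chromosome 4 over 13.5 Mb and the 29 of chromosome 8 over 17.2 Mb. The 24 of chromosome 5 lay within 0.808 Mb, from 128985990 to 129794057, where EC1 had a median share of 1 in both libraries and EC2 had 0.482 in CON and 0.541 in TM. The 16 of chromosome 3 lay from 142303289 to 144718664, well away from Adar, with medians of 0.519 and 0.483 in EC2. In Cct6a, a subunit of the chaperonin TRiC, 495 of 495 and 605 of 605 reads of EC1 CON and EC1 TM were changed, against 357 of 744 and 527 of 1186 of EC2 CON and EC2 TM. In Map3k7, the kinase TAK1, on chromosome 4, 142 of 286 and 159 of 315 reads of EC1 were changed, against 402 of 402 and 540 of 540 of EC2. The sites were chosen for this difference between the mice, so that the distance is set by the choice.

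**Figure D5:**
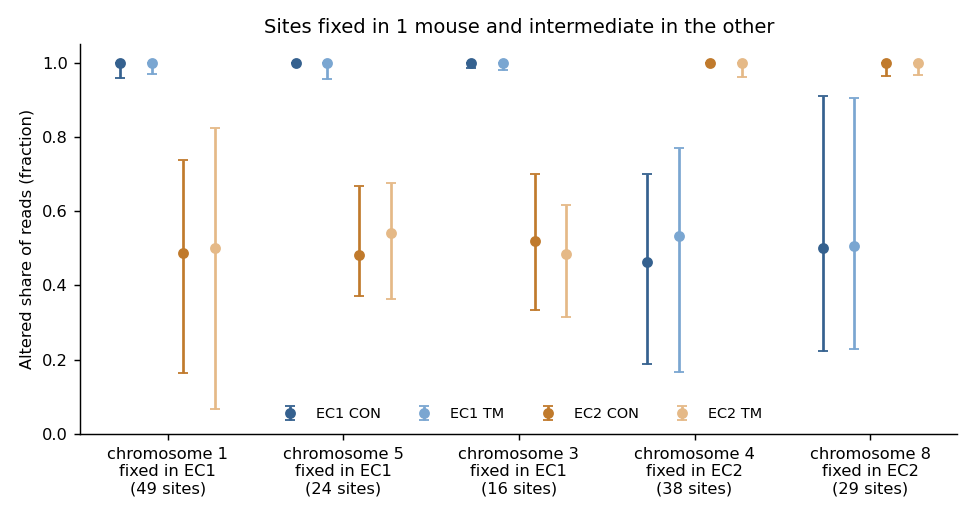
Points give the median altered share (fraction of reads) and bars the lowest and highest share in each library over sites that were above 0.95 in both libraries of 1 mouse and between 0.05 and 0.95 in the other, for the 5 chromosomes with the most such sites. The intermediate mouse has medians from 0.464 to 0.541 in its CON and TM libraries, and the other mouse has a median of 1.

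Most sites of EC2 that EC1 did not list lay on chromosome 8, where 57 of the 64 were between 84555737 and 94552547, in genes such as Cacna1a, Chd9 and Fto, an RNA demethylase. Their median depth was 22 reads in the CON and 27 in the TM library of EC2. Over the whole stretch the CON library of EC1 listed 947 sites at 10 or more reads and its TM library 1022, beside 1153 and 1654 for EC2. The depth of EC1 at the 57 positions themselves is unknown. It held no fixed variant in either direction, that is, none of the 4995 and no site above 0.95 in both EC1 libraries. In the Fto exon, 221 of 221 and 258 of 258 reads of EC2 were changed at 91485199.

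Of the 10 fixed variants farthest from any other, 2 lay in annotated repeats, beside 18.2% of all fixed variants. The Y chromosome held 2 of the 10, near Erdr1, a gene at the end of the sex chromosomes (121, 255, 107 and 360 reads, all changed), and in Gm20736, inside an LTR element (61 of 62, 47 of 47, 90 of 90 and 82 of 84). On the X chromosome a SINE in Gm10921 stood 31.4 Mb from the next one. The others were near Ccdc85a (39.1 Mb from the next), in Ikbke (25.5 Mb), near Rad18 (21.2 Mb), in Rpl14-ps1, a ribosomal protein pseudogene (20.5 Mb), and near Lrp8 (19.4 Mb), Adam24 (19.2 Mb) and Lrp1b (17.8 Mb). At Ccdc85a all 27, 10, 22 and 17 reads were changed. The end of the Y chromosome, at 90 to 91 Mb, also had 23 sites of intermediate share, all at Erdr1, and the end of the X chromosome, at 169 to 170 Mb, had 21.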

How the data were processed

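Reads were trimmed with Trimmomatic 0.38 and aligned to mm10 with STAR 2.6.1a by the authors, who counted genes with HTSeq 0.11.2 (versions from the submitters' processing notes) and called variants per library with BCFtools mpileup, whose version is not given in the sources used here. The authors deposited raw gene counts per library and, per site, counts of reference and of changed reads, annotated to gene regions and RepeatMasker repeats. These deposited counts were used as given, without normalization. The table names its columns EC1, EC1_1, EC2 and EC2_1. They were matched to libraries through a labelled copy of part of the table from the study, in which all 1998 sites held were equal to the columns assigned to each library. No column was left out for lack of a sample.

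The rule was applied with Python 3.11.15, numpy 2.4.6 and pandas 2.3.3, and figures were drawn with matplotlib 3.10.9. On simulated data of 20000 sites it found 98.4% of the sites simulated as fixed with 10 or more reads in all libraries, and no other site. The other simulated sites had shares far below the limit, so this checks the code and not how the rule treats sites near the limit. No comparison was tested, because the rule used all 4 libraries. Adjacent bases and codons came from GENCODE vM21 (GRCm38); at 521042 of 521051 sites that could be placed, the transcript had A. For codons, the transcript with the longest complete coding sequence was taken. Genes were named as Adar, the 20 with the most fixed variants, those within 2 Mb of Adar, the 10 with the deepest amino acid changes, the 10 farthest sites, and members of the lists for RNA editing and sensing (24 genes), EC identity (20) and cell type markers. Results for some genes are not reported here. Other genes were named after their values were seen, as examples. The rule and the lists were chosen with earlier results of these data known. Alternatives were other limits on share and depth, each library left out, window edges, distances from Adar and positions counted once. The joining of runs was settled after seeing the data.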

Additional observations from a re-analysis of the deposited data

How the results depend on the processing

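Of 96 values recomputed under an alternative for 11 results, 73 stayed within 1.5 times the reported count or within the counting interval of the reported share, and 23 did not. Limits on the share (0.90 or 0.99) moved none. The minimum depth moved most. At 5 reads there were 10390 fixed variants, 499 of them on chromosome 3, 247 windows with 10 or more, and shares of 64.8% in introns, 9.32% in 3′ UTRs, 11.6% in SINEs and 77.4% outside repeats. At 20 reads these values were 2398, 136, 57, 30.0%, 25.7%, 6.26% and 87.3%, and chromosome 3 held 5.67%. The shares by region and repeat thus moved with the minimum depth. The window of Adar held 0 in every alternative. The number near Adar was 29 within 2 Mb. Runs of 20 or more held 62.6% when joined over 0.5 Mb and 85.4% over 2 Mb, settings added after seeing the data.

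When libraries were left out one at a time, the number of fixed variants ran from 5308 to 6214, that on chromosome 3 from 248 to 304 and that of windows with 10 or more from 147 to 170. The share on chromosome 3 ran from 4.57% to 4.89%, in introns from 50.8% to 56.2%, in 3′ UTRs from 13.4% to 16.0%, in SINEs from 9.33% to 10.3% and outside repeats from 80.5% to 81.7%, and the number within 5 Mb of Adar from 72 to 75. The value farthest from the reported one came without EC2 CON for each of these except the number within 5 Mb of Adar. No paired test was run, because the rule used all 4 libraries, and the CON and TM values of each mouse are compared as descriptions only.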

Other observations

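Depth limits what is counted here. A fixed site must be transcribed to at least 10 reads in every library, so that silent genes and unread or weakly read sequence are not represented, and a stretch with no fixed variant is one where none was read, not one shown to have none. Changes other than A to G on the gene's strand were not in the table. The strain from which a fixed variant came was not assigned. With n = 2 mice, nothing is said of other mice of the colony.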
